A study of Arabidopsis thaliana with 36 samples.

Results

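The NIN-like proteins NLP1 to NLP9 are the 9 members of a plant transcription factor family, taken here by their locus codes from an RNA-seq table of 34218 features. All 9 were present in the counts of 36 Arabidopsis thaliana libraries, 18 from roots and 18 from rosettes (labelled shoot), with 3 biological replicates in each of 12 groups. The groups were the mutants nlp2-2, nlp2-3 and nlp7-1, the double mutant nlp2-3 nlp7-1, and the wild types Col-4 and Col-0. In the mutants the gene of NLP2, of NLP7 or of both is disrupted. All plants were 42 days old and had been grown in sand with 5 mM nitrate, a supply that does not limit growth, in days of 8 h of light. The ecotype tag reads Col-0 throughout, and only the titles, descriptions and column names separate Col-4. Here nlp2-2 was set against Col-4 and the other mutants against Col-0, but the labels do not name the parent of any mutant, nor where the genes are interrupted, nor how many plants made up a replicate. The question put to these rows was how each member is divided between shoot and root, and what the other members do when NLP2 or NLP7 is lost.

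NIN-like proteins couple nitrate to gene expression. They carry an RWP-RK domain, which binds nitrate-responsive promoter elements, and a PB1 domain near the carboxyl end, through which members pair with each other. NLP7 is the best known: it is held in the nucleus and phosphorylated when nitrate arrives, and it then turns on genes of nitrate uptake and assimilation. NLP6 is its close relative, NLP2 is a further activator of nitrate responses, and NLP8 is known for nitrate-promoted seed germination.

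The stretch of coding sequence that gives the RWP-RK domain its name is shown for each member, because it shows what the family shares. Likeness over longer sequence, which bears on read counting, follows below. Capitals mark the 18 bases that encode the amino acids of the name, read from the RefSeq annotation and genome of TAIR10.1, 5′ to 3′ on the coding strand.
NLP1 (AT2G17150), chr2:7467817-7467846, minus strand: ataatgCGATGGCCCTCCCGAAAAatcaag
NLP2 (AT4G35270), chr4:16778467-16778496, minus strand: ataacaCGATGGCCTTCCCGGAAGatcaag
NLP3 (AT4G38340), chr4:17957127-17957156, plus strand: atctcaAGGTGGCCATCGAGGAAGatcaag
NLP4 (AT1G20640), chr1:7157234-7157263, plus strand: atacaaAGATGGCCTTCAAGAAAGataaaa
NLP5 (AT1G76350), chr1:28642146-28642175, plus strand: atacagAGATGGCCTTCAAGAAAAatcaag
NLP6 (AT1G64530), chr1:23962053-23962082, plus strand: atctcaCGGTGGCCATCTCGAAAAatcaac
NLP7 (AT4G24020), chr4:12482824-12482853, plus strand: atctcgCGGTGGCCATCGAGGAAGatcaag
NLP8 (AT2G43500), chr2:18065454-18065483, plus strand: atcatgAGGTGGCCATCTCGTAAGattaac
NLP9 (AT3G59580), chr3:22011657-22011686, plus strand: attatgAGATGGCCATCTCGAAAGattaac

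Each of these stretches lies inside a single coding exon. Over the longest coding sequence of each member, the 36 pairs were 70.9 to 83.2% identical. NLP4 and NLP5 were the closest pair at 83.2%, followed by NLP1 and NLP2 at 82.7% and by NLP8 and NLP9 at 81.7%. NLP6 and NLP7 were 76.1% identical, and NLP3 had no partner above 73.5%. The printed stretches order the pairs otherwise. There the fewest mismatches, 2, were between NLP3 and NLP7, which were 72.5% identical over the coding sequence and shared a run of 28 bases. The longest run of identical bases was 44 in NLP1 with NLP2, 38 in NLP4 with NLP5 and 34 in NLP8 with NLP9, and 11 at the shortest. A read longer than such a run meets a mismatch between any pair of members, though the read length and the handling of reads with several matches are not given in the sources used here. One form of the nitrate-responsive cis-element has the arm GACNCTT followed, 10 bases further on, by AAG. It was searched on both strands of the 250 bases before each gene start and lay in 40 of 27443 such windows (0.146%), and the arm GACNCTT alone, which it contains, in 7.18%. Neither was found in the windows of the 9 members, which says only that these letters are not there.

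Libraries of both tissues held between 18150510 and 31657474 counts. The family took 0.0181 to 0.0272% of the counts of a shoot library and 0.0417 to 0.0546% of those of a root library. Tissue labels were checked with markers. The 8 leaf markers, among them RBCS1A, summed to 58393 to 73274 CPM (counts scaled to 1e+06 per library) in shoot libraries and to 33.5 to 104 CPM in root libraries. The 12 root markers, of endodermis (CASP1) and root hair (EXPA7), summed to 0.0543 to 1.17 CPM in shoots and 261 to 518 CPM in roots. CPM values carry the TMM (trimmed mean of M values) library factors of edgeR. These factors were taken within each tissue, so CPM of shoots and of roots are not on 1 common scale. Levels of different members are compared in FPKM, which divides the counts by library size and by gene length. On log2(FPKM + 0.1) the median of all genes was itself lower in Col-0 shoots than in Col-0 roots, at -0.78. The family shares and FPKM of the tissues are therefore not set against each other as an organ balance. In such bulk tissue fewer cells of a type and less RNA per cell cannot be told apart.

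In wild-type roots the family was led by NLP6, and in wild-type shoots by NLP7, NLP2, NLP4 and NLP8. Col-0 roots held 39.9 ± 2.6 FPKM of NLP6 (SD, n = 3) and 29.6 ± 2.8 FPKM of NLP7, which were 28.8% and 21.4% of the summed FPKM of the family. NLP2 at 17.0 ± 0.27 and NLP4 at 16.9 ± 0.19 FPKM followed with overlapping libraries, then NLP1 at 15.9 ± 0.18, NLP5 at 9.22 ± 0.5, NLP3 at 6.9 ± 0.74 and NLP8 at 3.03 ± 0.067 FPKM. Apart from NLP2 and NLP4, no neighbours in this order overlapped. NLP9 was close to silent in roots, with 0, 1 and 0 counts in the Col-0 libraries and 1, 0 and 0 in Col-4. Col-4 roots gave NLP6, NLP7, NLP4, NLP1, NLP2, NLP5, NLP3 and NLP8 in falling order, with only NLP4 (16.5 FPKM) and NLP1 (16.0 FPKM) overlapping.

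In Col-0 shoots the top of the order was flat. NLP7 stood at 14.3 ± 0.015 FPKM, NLP2 at 14.1 ± 0.43, NLP4 at 12.5 ± 0.69 and NLP8 at 11.7 ± 0.74 FPKM, and both NLP7 with NLP2 and NLP4 with NLP8 overlapped. NLP6, first in roots, came after these 4 in shoots at 7.93 ± 0.45 FPKM beside NLP5 at 7.76 ± 0.52, again with overlapping libraries. NLP1 at 5.43 ± 0.73, NLP3 at 3.46 ± 0.56 and NLP9 at 1.42 ± 0.13 FPKM closed the order without overlap. NLP9 had 115, 101 and 86 counts in these 3 libraries.

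**Figure D1:**
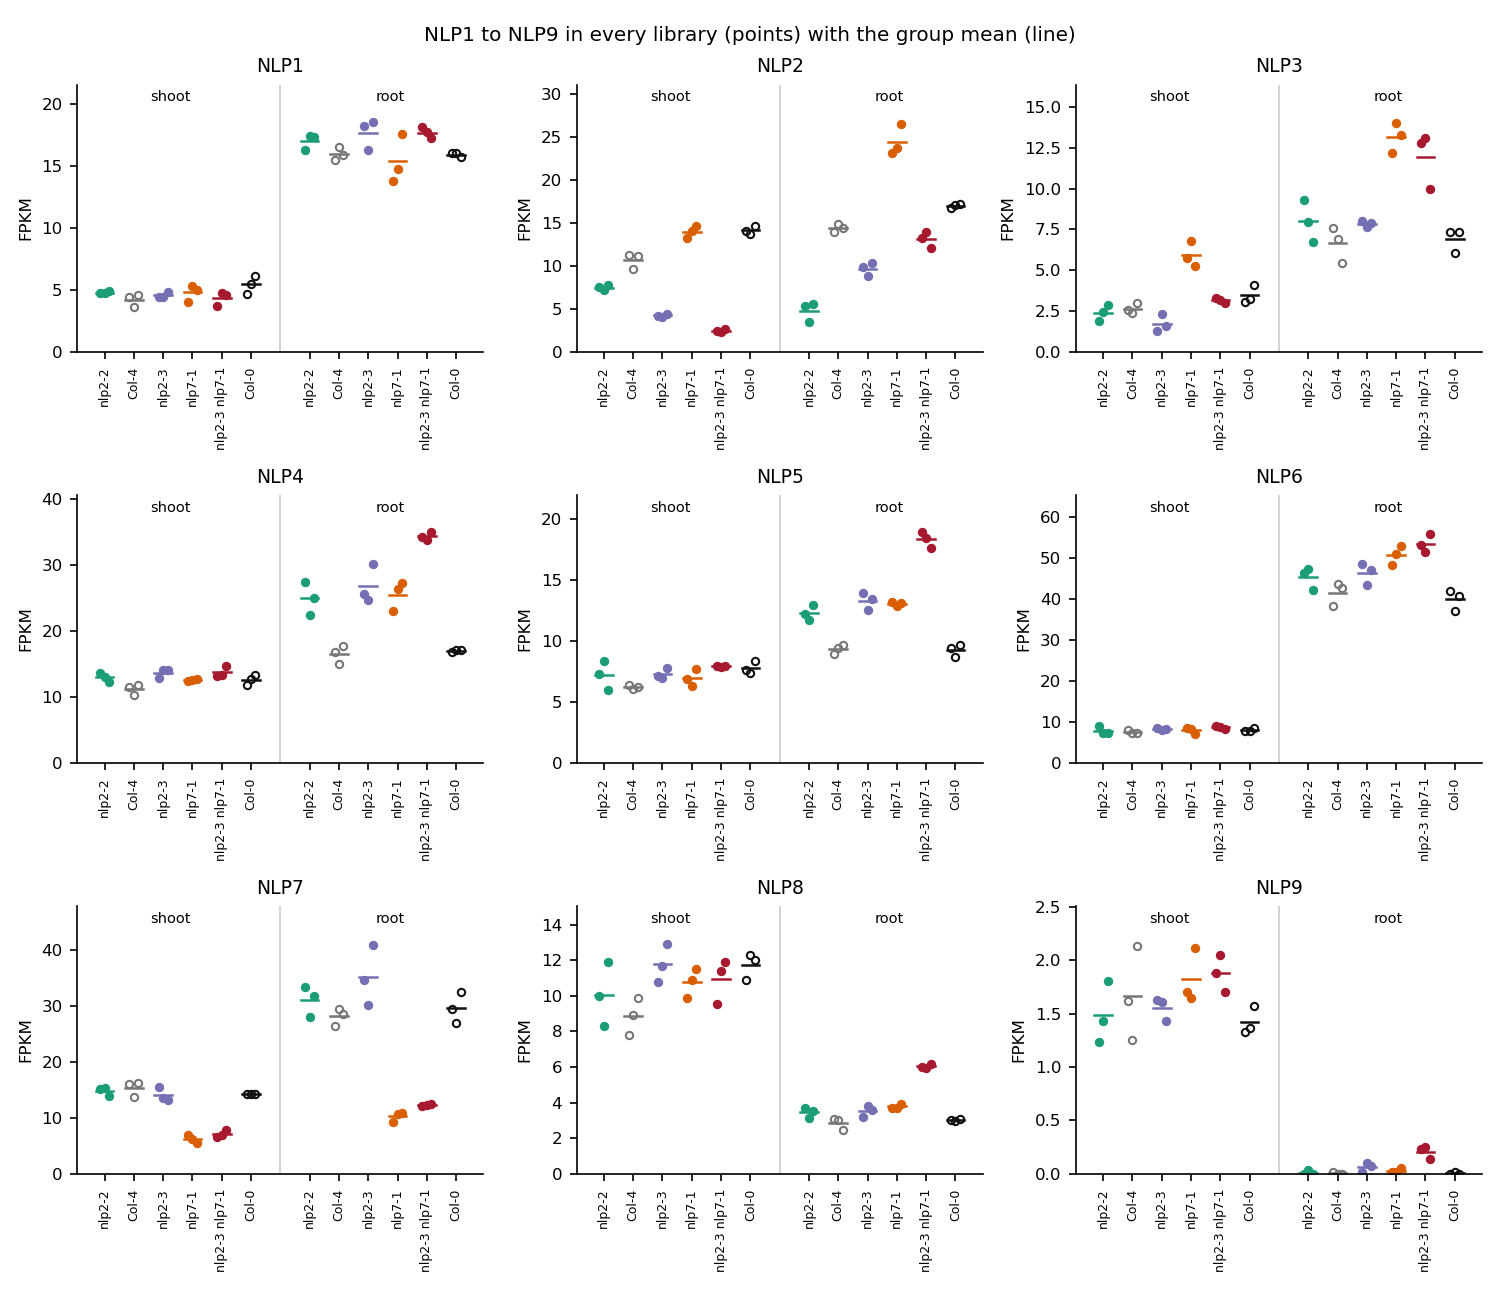
Level of each NLP gene in FPKM (vertical axis, linear from 0, scaled per gene) in every library, grouped by genotype, shoots left and roots right; points are libraries, lines are group means, and open points are wild types. NLP6 stands at 7.93 FPKM in Col-0 shoots and 39.9 FPKM in Col-0 roots, NLP8 at 11.7 and 3.03 FPKM, and NLP4 and NLP5 are higher in mutant than in wild-type roots. The median gene is also lower in Col-0 shoots than in Col-0 roots on the FPKM scale.

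The organ balance of the members ran from strong root preference to near absence from roots. NLP8 and NLP9 were shoot genes. NLP8 had 40.2 ± 2.5 CPM in Col-0 shoots and 10.6 ± 0.32 CPM in Col-0 roots, each scaled within its tissue. Its log2 ratio of shoot over root comes from the fit of all 36 libraries together, not from these CPM. That ratio was 2.67 ± 0.11 in Col-0 (SE, edgeR quasi-likelihood test with Benjamini-Hochberg (BH) adjusted p = 4.56e-21) and 2.40 ± 0.11 in Col-4. NLP9 had 302 counts in Col-0 shoots and 1 in Col-0 roots, a rate ratio of 260 with an exact 95% interval of 46.4 to 10318 that covers counting error only. In Col-4 it had 346 counts in shoots and 1 in roots. NLP6 and NLP1 were root genes, with log2 ratios of -1.62 ± 0.08 and -0.84 ± 0.10 in Col-0 and -1.72 ± 0.08 and -1.18 ± 0.10 in Col-4, all called. A gene was called at an adjusted p under 0.05.

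The members between these ends sat near the middle of all genes, where the sign depends on the scaling. NLP2, NLP4 and NLP5 had shoot over root ratios of 0.45 ± 0.09, 0.28 ± 0.08 and 0.46 ± 0.09 in Col-0 on TMM-scaled counts, each called higher in shoots, but on log2(FPKM + 0.1) they stood at -0.26, -0.43 and -0.25, each called lower in shoots. The median of all genes lay at -0.08 on the first scale and at -0.78 on the second, so a direction here is read against the median gene. Of the genes called in Col-0, 46.4% were higher in shoots on TMM-scaled counts and 24.4% on log2(FPKM + 0.1). Taken relative to the median gene the scales differed little: NLP2 lay 0.54 and 0.52 above it, NLP4 0.36 and 0.35, and NLP5 0.55 and 0.53. NLP7 lay 0.25 below the median gene on counts and 0.26 below it on FPKM in Col-0, but only 0.03 and 0.05 below it in Col-4. On counts neither NLP7 (-0.12 ± 0.10, edgeR, adjusted p = 0.244) nor NLP5 (0.17 ± 0.09, adjusted p = 0.0798) was called in Col-4. NLP3 was not called in Col-0 on counts (-0.29 ± 0.16, adjusted p = 0.103) and was called in Col-4 (-0.58 ± 0.17, adjusted p = 0.00233).

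**Figure D2:**
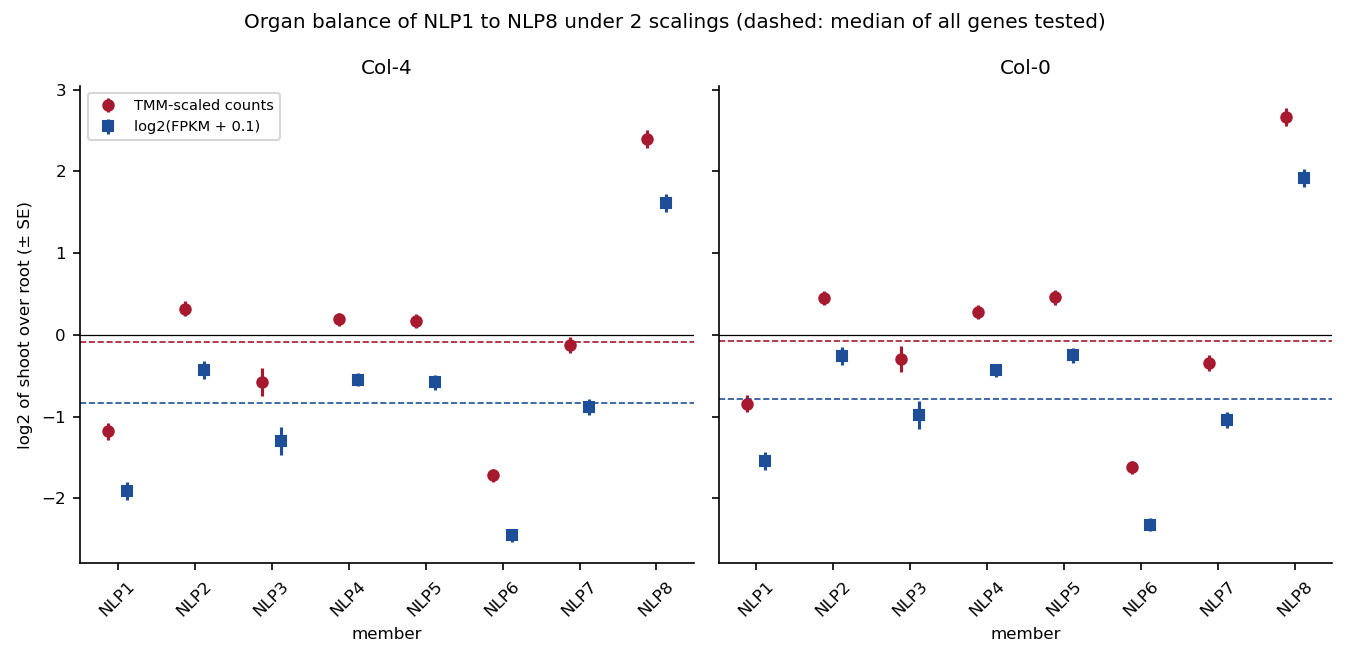
Log2 ratio of shoot over root (± SE) for NLP1 to NLP8 in Col-4 (left) and Col-0 (right), on TMM-scaled counts (circles) and on log2(FPKM + 0.1) (squares), with the median of all genes tested dashed. NLP8 lies far above both medians and NLP6 and NLP1 below, while NLP2, NLP4 and NLP5 lie above 0 on counts and below 0 on FPKM, and above the median on both.

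In all, 8 of 9 members were called between shoots and roots of Col-0, against 78.4% of all genes, and 7 of 9 in Col-4, against 78.1%. A call between these organs is therefore the usual state of a gene, and the sizes above carry the description.

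The transcripts of the mutated genes were reduced but not lost, and the remainder of NLP2 differed between the alleles and tissues. In roots NLP2 had 20.3, 13.1 and 20.8 CPM in nlp2-2, against 54.2, 57.1 and 55.0 CPM in Col-4. In nlp2-3 roots it had 37.7, 33.3 and 39.3 CPM, against 65.4, 65.2 and 66.7 CPM in Col-0. These are 32.6% of the wild-type mean in nlp2-2 roots and 55.9% in nlp2-3 roots. In shoots the alleles stood the other way round: NLP2 had 28.7, 27.5 and 30.2 CPM in nlp2-2 shoots, against 43.2, 38.3 and 42.9 CPM in Col-4 shoots (69.4% of the mean), and 16.2, 15.4 and 16.8 CPM in nlp2-3 shoots, against 53.9, 52.5 and 54.8 CPM in Col-0 shoots (30% of the mean). No mutant library overlapped its wild type. The difference between the alleles, nlp2-2 over Col-4 minus nlp2-3 over Col-0, was 1.21 ± 0.10 in shoots (edgeR, BH adjusted p = 1.26e-08, where 0.345% of all genes were called) and -0.78 ± 0.16 in roots, where it was not called (adjusted p = 0.145, but 0.00355 by DESeq2, and 0.0635% of all genes called by edgeR). The wild types themselves differed in NLP2 in shoots, Col-4 over Col-0 being -0.37 ± 0.07 (adjusted p = 0.0032), and the shoot change of NLP2 in nlp2-2 was -0.53 ± 0.07 over Col-4 and -0.90 ± 0.07 over Col-0. NLP2 was the only member called among 9 between shoots of the wild types, where 0.794% of all genes were. NLP1, NLP3, NLP4, NLP5 and NLP8 were also lower in Col-4 shoots at an unadjusted edgeR p under 0.05, though not called (-0.34, -0.35, -0.14, -0.30 and -0.37). The median of the 9 members there was -0.30. Between wild-type roots edgeR and DESeq2 each called 0 of 8 tested members (0.0391% of all genes by edgeR), with 1, NLP2, at an unadjusted p under 0.05. Counts of a disrupted gene can come from transcripts that encode no complete protein.

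NLP7 transcripts fell in both lines that carry nlp7-1. Roots had 31.9, 36.6 and 36.8 CPM in nlp7-1 and 41.0, 41.3 and 41.5 CPM in the double mutant, against 104, 92 and 113 CPM in Col-0. Shoots had 23.6, 21.5 and 18.6 CPM in nlp7-1 and 22.0, 22.8 and 26.0 CPM in the double mutant, against 48.8, 48.9 and 48.1 CPM in Col-0. No library of either line overlapped Col-0. The log2 fold changes were -1.55 ± 0.10 and -1.32 ± 0.10 in roots and -1.19 ± 0.08 and -1.04 ± 0.08 in shoots. Neither NLP2 allele had a call for NLP7 in roots or shoots. In nlp2-3 roots the change of NLP7 (0.22 ± 0.10, adjusted p = 0.202) was called when nlp2-3 replicate 2 was left out (0.0336).

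NLP2 was higher in roots that carry nlp7-1 than in roots with the same NLP2 allele and intact NLP7, and in shoots it was level or lower. In nlp7-1 roots it had 88.9, 90.5 and 101 CPM, above all Col-0 libraries, a change of 0.51 ± 0.11 (adjusted p = 0.00654). In nlp7-1 shoots it had 51.1, 53.8 and 55.4 CPM, against 53.9, 52.5 and 54.8 CPM in Col-0, with overlap and no call (-0.01 ± 0.06). In plants with nlp2-3, NLP2 had 8.86, 8.64 and 9.68 CPM in double mutant shoots, against 16.2, 15.4 and 16.8 CPM in nlp2-3 shoots, -0.83 ± 0.08 (adjusted p = 1.96e-08). Double mutant roots had 50.1, 52.7 and 45.4 CPM, above the 37.7, 33.3 and 39.3 CPM of nlp2-3 roots, 0.42 ± 0.11 (adjusted p = 0.0298). This root call was lost without any 1 of the nlp2-3 libraries or without double mutant replicate 1 or 2 (adjusted p up to 0.129). The difference between the tissues in that contrast was itself called, -1.24 ± 0.14 (adjusted p = 4.1e-07), as it was for 4 of 9 members and 11.6% of all genes. The 4 include NLP2 and NLP7, both disrupted in the double mutant. In shoots NLP2 was also the only member of 9 for which the double mutant departed from the sum of the single effects, -0.82 ± 0.10 (adjusted p = 3.35e-05), where 3.76% of all genes did. In roots edgeR and DESeq2 each called 0 of 8 tested members (0.239% of all genes by edgeR), with NLP2 at -0.08 ± 0.16. NLP8, at 0.47 ± 0.14 (adjusted p = 0.27), was the 1 member with an unadjusted p under 0.05.

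Among the members that were not mutated, 2, 2, 5 and 5 were called in the roots of nlp2-2, nlp2-3, nlp7-1 and the double mutant, all higher. In the shoots of these lines 0, 1 (NLP3, lower), 1 (NLP3, higher) and 1 (NLP1, lower) were called. NLP9 did not pass the filter on low counts there, so 8 members were tested in roots and 9 in shoots. In nlp2-2 roots 3 members were called, NLP2 and 2 higher ones, against 7.12% of all genes (3.2% higher, 3.91% lower). In nlp2-3 roots 3 were called, again NLP2 and 2 higher ones, against 6.84% (3.36% higher, 3.48% lower). In nlp7-1 roots 6 were called, the disrupted NLP7 and 5 higher ones, against 7.94% (4.5% higher, 3.45% lower). In double mutant roots 7 of 8 were called, 5 higher and the disrupted NLP2 and NLP7 lower, against 25.2% (12.9% higher, 12.2% lower). In nlp2-2 shoots 1 member was called, the disrupted NLP2, against 3.06% of all genes (0.737% higher, 2.33% lower). In nlp2-3 shoots 2 were called, NLP2 and NLP3, against 5.8% (1.33% higher, 4.47% lower). In nlp7-1 shoots 2 were called, NLP7 and NLP3, against 9.77% (4.84% higher, 4.93% lower). In double mutant shoots 3 were called, NLP2, NLP7 and NLP1, against 31.1% (15.5% higher, 15.6% lower). The disrupted genes are part of these counts, and the counts without them are those given first. Of the unmutated members tested, the log2 change was positive for 7 of 7 in nlp2-2 roots, 7 of 7 in nlp2-3 roots, 6 of 7 in nlp7-1 roots and 6 of 6 in double mutant roots, and for 5 of 8, 4 of 8, 4 of 8 and 4 of 7 in the shoots of these lines. The median over all genes was within 0.01 of 0 in each of the root comparisons. The last 3 mutants share the Col-0 libraries, so only nlp2-2 with Col-4 repeats a result on other samples.

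**Figure D3:**
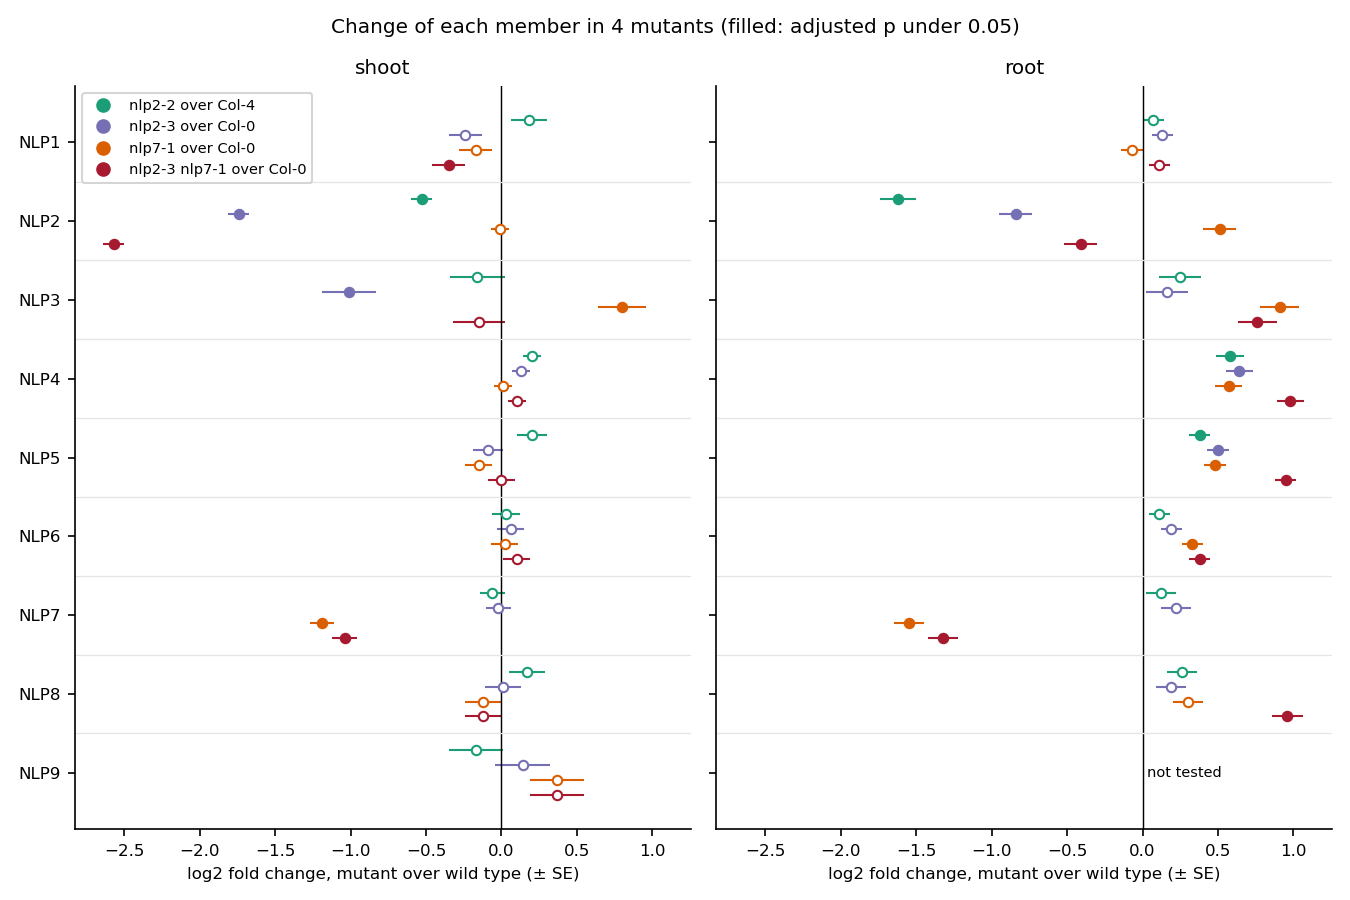
Log2 fold change of mutant over wild type (horizontal axis, ± SE) for each NLP gene, shoots left and roots right, 1 colour per mutant; filled points are called at an adjusted p under 0.05. In roots NLP4 and NLP5 lie at 0.38 to 0.98 in all 4 mutants, and in shoots they lie between -0.15 and 0.20 with open points.

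NLP4 and NLP5, the closest pair by sequence, rose in the roots of every mutant. NLP4 had 87.7, 70.7 and 79.5 CPM in nlp2-2 roots, against 54.2, 48.5 and 56.9 CPM in Col-4. It had 82.0, 78.7 and 96.3 CPM in nlp2-3, 73.8, 84.3 and 87.0 CPM in nlp7-1 and 109, 107 and 110 CPM in the double mutant, against 55.1, 54.7 and 55.5 CPM in Col-0. All mutant libraries lay above those of their wild type. The log2 changes were 0.58 ± 0.09 (adjusted p = 0.000263), 0.64 ± 0.09 (9.7e-05), 0.57 ± 0.09 (0.000248) and 0.98 ± 0.09 (7.33e-08), so that NLP4 reached 197% of the Col-0 mean in the double mutant.

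NLP5 followed the same order at a lower level. It had 33.4, 31.5 and 34.8 CPM in nlp2-2 roots, against 24.5, 25.6 and 26.3 CPM in Col-4. It had 38.0, 33.8 and 36.4 CPM in nlp2-3, 36.3, 34.9 and 35.6 CPM in nlp7-1 and 51.0, 49.5 and 47.1 CPM in the double mutant, against 26.2, 23.6 and 26.5 CPM in Col-0. Again no library overlapped, and the changes were 0.38 ± 0.07, 0.50 ± 0.07, 0.48 ± 0.07 and 0.95 ± 0.07. Over the 18 root libraries NLP4 and NLP5 had r = 0.95, a description over libraries that share their genotypes. In shoots neither gene was called in any mutant, and NLP4 had 41.5, 41.5 and 45.5 CPM in the double mutant, against 38.0, 40.4 and 41.7 CPM in Col-0. In nlp2-2 shoots NLP4 had 43.9, 41.7 and 40 CPM, above the 37.1, 34.4 and 37.6 CPM of Col-4. That change was 0.20 ± 0.06 over Col-4 (edgeR, adjusted p = 0.0907) and 0.07 ± 0.06 over Col-0. The other shoot libraries of both genes overlapped their wild type.

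The double mutant exceeded each single mutant in both genes. Over nlp7-1 roots NLP4 stood at 0.41 ± 0.08 and NLP5 at 0.47 ± 0.07, and over nlp2-3 roots at 0.34 ± 0.08 and 0.45 ± 0.07, all called. The NLP4 value over nlp2-3 lost its call without nlp2-3 replicate 1 or 2, without double mutant replicate 1 or 3 and when only these 2 groups were fitted (adjusted p up to 0.0925). In all, 4 of 8 members were called between double mutant and nlp7-1 roots, against 6.51% of all genes, and 6 of 8 between double mutant and nlp2-3 roots, against 6.47%. In shoots these numbers were 2 of 9 (7.99%) and 3 of 9 (26.6%). Each of these counts includes NLP2, and those over nlp2-3 include NLP7 as well, both disrupted in the double mutant. The interaction term did not reach a call for NLP4 (-0.23 ± 0.12) or NLP5 (-0.04 ± 0.10), so a departure from additive log2 effects was not detected.

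The summed root markers were higher on average in the roots of every mutant than in those of its wild type. The 12 markers summed to 506, 479 and 372 CPM in nlp2-2 roots, against 362, 401 and 276 CPM in Col-4. They summed to 369 to 517 CPM in nlp2-3, 443 to 493 CPM in nlp7-1 and 379 to 518 CPM in the double mutant, against 261 to 377 CPM in Col-0. The sums of nlp2-2 and of nlp2-3 overlapped those of their wild type. In these comparisons 1, 2, 2 and 6 of the 12 were called higher, against 3.2%, 3.36%, 4.5% and 12.9% of all genes, and none had 0 counts in all libraries. The markers had median log2 changes of 0.46 in nlp2-2, 0.44 in nlp2-3, 0.49 in nlp7-1 and 0.52 in the double mutant. Their part in the changes of NLP4, NLP5 and the other members was not tested.

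NLP3, which over the coding sequence is closest to NLP1 and has no near twin, changed with the loss of NLP7 in both tissues. It also changed with nlp2-3 in shoots. In roots it had 31.0, 35.5 and 33.5 CPM in nlp7-1 and 32.1, 32.8 and 24.9 CPM in the double mutant, against 19, 15.3 and 18.9 CPM in Col-0. Both lines lay above Col-0 in all libraries, with changes of 0.91 ± 0.13 (adjusted p = 0.000214) and 0.76 ± 0.13 (0.000345). In nlp2-2 and nlp2-3 roots NLP3 was not called (0.25 ± 0.14 and 0.16 ± 0.14). In shoots it had 14.7, 17.2 and 13.3 CPM in nlp7-1, against 7.74, 8.2 and 10.2 CPM in Col-0, 0.80 ± 0.16 (adjusted p = 0.0019). In nlp2-3 shoots it had 3.28, 5.74 and 3.94 CPM, below every Col-0 library, -1.01 ± 0.18 (adjusted p = 0.000438).

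The double mutant shoots held 8.22, 7.78 and 7.38 CPM of NLP3, between the levels of the single mutants and overlapping Col-0 (-0.15 ± 0.17, adjusted p = 0.535). They were higher than nlp2-3 (0.85 ± 0.18, adjusted p = 0.000912) and lower than nlp7-1 (-0.95 ± 0.16, adjusted p = 0.000388). The interaction was 0.05 ± 0.24, so the opposite single effects summed on the log2 scale without a detectable remainder. In the other NLP2 allele NLP3 was not called: nlp2-2 shoots had 4.7, 6.14 and 7.37 CPM, against 6.51, 6.18 and 7.6 CPM in Col-4, -0.16 ± 0.18 over Col-4 and -0.52 ± 0.17 over Col-0 (adjusted p = 0.778 and 0.0734). The difference between the alleles was 0.84 ± 0.25 and was not called (adjusted p = 0.26). In roots NLP3 was the member with the most negative correlation with NLP7 across libraries (r = -0.84, n = 18), a description that rests on the nlp7-1 lines being low in one and high in the other.

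NLP6, the most abundant member in roots, rose less. It had 139, 146 and 151 CPM in nlp7-1 roots and 150, 145 and 156 CPM in double mutant roots, against 123, 106 and 118 CPM in Col-0. These libraries did not overlap Col-0, and the changes were 0.33 ± 0.07 (adjusted p = 0.00462) and 0.38 ± 0.07 (0.000355), or 126% and 130% of the Col-0 mean. In the NLP2 single mutants it was not called (0.11 ± 0.07 and 0.19 ± 0.07), and in shoots all 6 groups lay within 20.2 to 25.5 CPM. NLP1, the nearest relative of NLP2, was not called in the roots of any mutant, with 65.3, 63.9 and 61.4 CPM in the double mutant, against 59.9, 58.5 and 58.1 CPM in Col-0. In shoots NLP1 fell in the double mutant, with 13.2, 16.8 and 16.1 CPM, against 17.1, 20 and 22.1 CPM in Col-0 (-0.35 ± 0.11, adjusted p = 0.0195). That call was lost when Col-0 replicate 2, Col-0 replicate 3 or replicate 1 of the double mutant was left out and by limma on both FPKM scales (adjusted p up to 0.134), and Col-4 shoots held 16.1, 13.5 and 16.8 CPM.

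NLP8 and NLP9, the shoot-biased pair, rose in double mutant roots. NLP8 had 20.4, 20.3 and 20.9 CPM there, against 10.7, 10.2 and 10.8 CPM in Col-0, 0.96 ± 0.10 (adjusted p = 4.93e-07). Of the single mutants, nlp2-3 held 11.0, 12.9 and 12.2 CPM and nlp7-1 12.8, 12.8 and 13.5 CPM, above the Col-0 libraries but not called (0.19 ± 0.10 and 0.30 ± 0.10, adjusted p = 0.325 and 0.0761). In nlp2-2 roots NLP8 had 12.7, 10.7 and 12 CPM, against 10.7, 10.3 and 8.41 CPM in Col-4. These overlapped and were not called (0.26 ± 0.10, edgeR, adjusted p = 0.137). The double mutant was above nlp2-3 by 0.77 ± 0.10 (adjusted p = 2.95e-05) and above nlp7-1 by 0.66 ± 0.10 (0.000185). In shoots NLP8 was not called in any mutant, with 32.4, 38.1 and 39.9 CPM in the double mutant, against 37.5, 42.4 and 40.6 CPM in Col-0.

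For NLP9 in roots the raw counts are the evidence. They were 16, 19 and 9 in the double mutant, 1, 6 and 6 in nlp2-3, 1, 1 and 3 in nlp7-1, and 0, 1 and 0 in Col-0, and 0, 2 and 0 in nlp2-2, against 1, 0 and 0 in Col-4. Only the double mutant libraries all lay above Col-0. The rate ratio of the double mutant over Col-0 was 38.7 (44 counts and 1 count, exact 95% interval 6.6 to 1565, counting error only), that of nlp2-3 was 11.6 (1.74 to 493) and that of nlp7-1 was 4.9 (0.548 to 232). In a fit without the low-count filter the double mutant was called over Col-0 (edgeR, BH adjusted p = 0.00145), and nlp2-3 (0.164) and nlp7-1 (0.514) were not. The level remained low, at 0.206 ± 0.06 FPKM in double mutant roots, against 1.87 ± 0.17 FPKM in double mutant shoots. In shoots NLP9 was not called in any mutant. It stood at 0.37 ± 0.18 in both nlp7-1 and the double mutant (edgeR, adjusted p = 0.214 and 0.114), with all libraries above Col-0. In nlp2-2 and nlp2-3 shoots it stood at -0.17 ± 0.18 and 0.14 ± 0.18, with overlap. The 8 leaf markers summed to 36.1, 65.4 and 63.8 CPM in double mutant roots, against 33.5, 59.7 and 104 CPM in Col-0 roots. These libraries overlapped, and the 7 leaf markers tested had a median log2 change of 0.13, with 1 called lower and 0 higher by edgeR. Their part in the values of NLP8 and NLP9 was not tested.

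**Figure D4:**
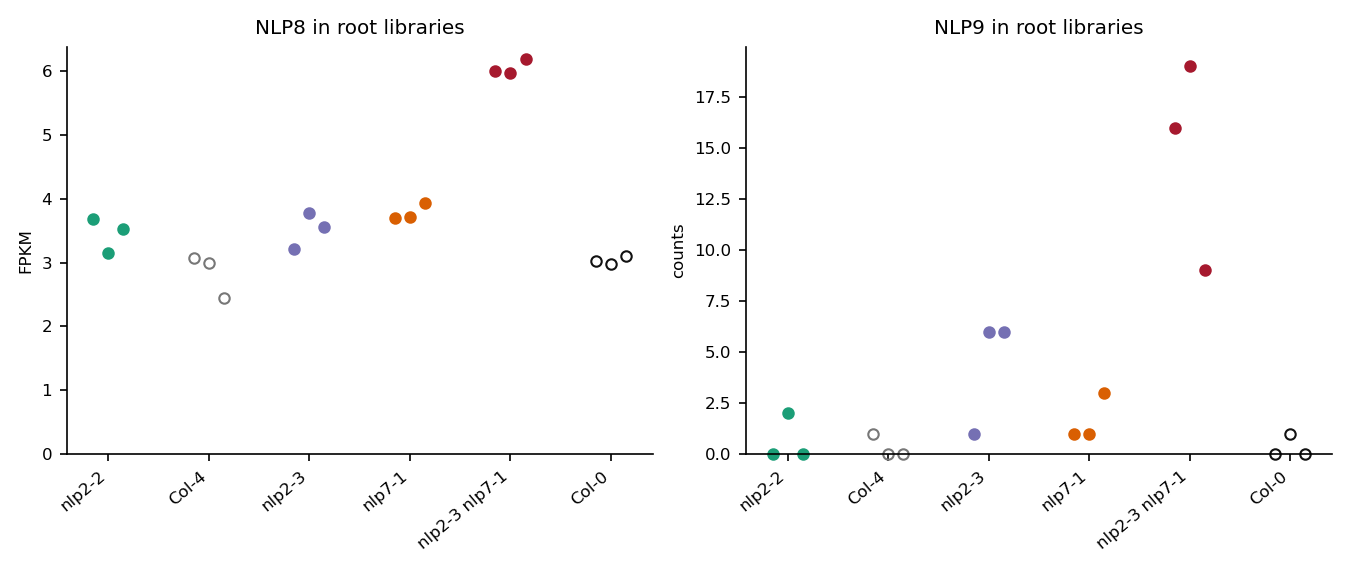
NLP8 in FPKM (left) and NLP9 in raw counts (right) in each of the 18 root libraries by genotype; points are libraries and open points are wild types. The double mutant libraries lie at 5.97 to 6.19 FPKM of NLP8 and at 9 to 19 counts of NLP9, above all other libraries, against 2.97 to 3.1 FPKM and 0 to 1 counts in Col-0.

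The contrast between root and shoot was tested directly, as the effect in shoots minus the effect in roots over all 36 libraries. In the double mutant 7 of 9 members were called, all lower in this difference, against 23.2% of all genes in either direction and 11.3% lower. The 7 include NLP2, which is disrupted in this line, and NLP9, which had 1 count in Col-0 roots. NLP4 stood at -0.88 ± 0.11 and NLP5 at -0.95 ± 0.12 (adjusted p = 2.13e-07 and 3.46e-07), NLP8 at -1.08 ± 0.15 and NLP3 at -0.91 ± 0.23. In nlp2-3 4 of 9 were called, all lower and the disrupted NLP2 among them (4.23% of all genes, 2.83% lower). NLP4 stood at -0.53 ± 0.11 and NLP5 at -0.61 ± 0.12 there. In nlp7-1 3 of 9 were called, all lower (6.39%, 3.38% lower), with NLP4 at -0.57 ± 0.11 and NLP5 at -0.65 ± 0.12. In nlp2-2 2 of 9 were called (2.64%): NLP2 at 1.08 ± 0.14, and NLP4 at -0.39 ± 0.11 (adjusted p = 0.0445), a call lost in 10 of 19 alternatives (adjusted p up to 0.169), among them leaving out Col-4 root replicate 1 or 2 or nlp2-2 root replicate 1 or 3. NLP5 was not called there (-0.19 ± 0.12). NLP6 reached no call in any of these differences (-0.32 ± 0.11 in nlp7-1, adjusted p = 0.0939), so its rise is not shown to be confined to roots.

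The summed level of the family describes how these changes add up. With NLP2 and NLP7 left out, the other 7 members summed in roots to 115, 110 and 108 FPKM in nlp2-2, against 90, 94.5 and 94 FPKM in Col-4. They summed to 117, 108 and 121 FPKM in nlp2-3, 114, 123 and 128 FPKM in nlp7-1 and 143, 141 and 142 FPKM in the double mutant, against 94.4, 87.8 and 93.6 FPKM in Col-0. No mutant library overlapped its wild type. The same 7 members in shoots summed to 48.5, 51.3 and 51.9 FPKM in the double mutant, against 47.1, 49.9 and 53.8 FPKM in Col-0, with full overlap. In nlp2-3 shoots they summed to 46.4, 49.1 and 50.7 FPKM and in nlp7-1 shoots to 49, 51.8 and 51.3 FPKM, also overlapping Col-0. In nlp2-2 shoots they summed to 47.5, 45.3 and 46.7 FPKM, against 42.3, 39.6 and 44.8 FPKM in Col-4. All nlp2-2 shoot libraries thus lay above Col-4, though they were not higher than Col-0.

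With all 9 members counted, roots of the double mutant held 167 ± 1.3 FPKM, against 139 ± 6 FPKM in Col-0 (SD, n = 3), and shoots held 60.1 ± 2.5 FPKM, against 78.7 ± 3.7 FPKM. The sum of transcripts was thus higher than wild type in the roots and lower in the shoots of the same line. In shares of that sum, NLP4 took 20.5% in double mutant roots, against 12.2% in Col-0 roots, and NLP5 10.9% against 6.65%. NLP7 took 7.31% in double mutant roots, against 21.4% in Col-0 roots, and NLP2 4.05% in double mutant shoots, against 18.0% in Col-0 shoots. NLP4 passed NLP7 and became second to NLP6 in double mutant roots, at 34.3 and 53.5 FPKM, and first in double mutant shoots, at 13.7 FPKM. These sums are not tested, since they run over members chosen with results known.

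**Figure D5:**
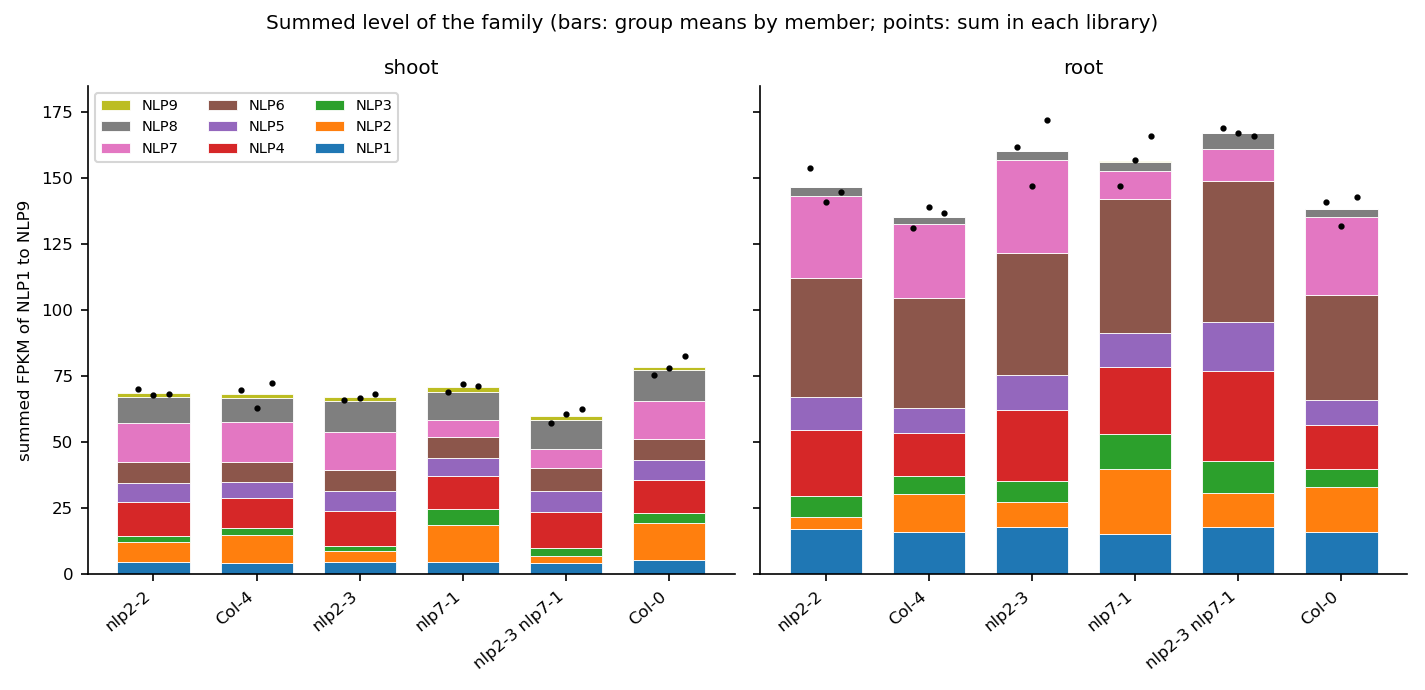
Summed FPKM of the 9 NLP genes (vertical axis from 0) by genotype, shoots left and roots right; stacked bars are group means by member and points are the sums in single libraries. Double mutant roots reach 166 to 169 FPKM, above the 132 to 143 FPKM of Col-0 roots, while double mutant shoots lie at 57.3 to 62.4 FPKM, below the 75.4 to 82.7 FPKM of Col-0 shoots.

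Patterns like those of 4 members were sought among 12217 genes by Pearson correlation over the 18 root and the 18 shoot libraries, taking the lower of the 2 values. For NLP4 the nearest were the transcription factor genes TCP2 (r = 0.91 in roots and 0.79 in shoots) and NF-YA10 (0.86 and 0.77). For NLP2 they were AT1G35560, listed as TCP23 (0.86 and 0.86), and AT1G73600 (0.77 and 0.84). For NLP5 they were the carrier gene APC1 (0.75 and 0.73) and AT3G54190 (0.70 and 0.68). For NLP7 they were AT5G11330 (0.90 and 0.99) and LBD39 (0.95 and 0.90). The libraries share genotypes, so these values describe likeness and carry no test.

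The RWP-RK relatives outside the family were low. RKD1 to RKD4, of the RWP-RK genes that lack the long NLP amino end, had at most 4 counts in any library. RKD5 had 10 to 44 counts in root libraries and 3 to 19 in shoot libraries and was not called in any of the 8 comparisons of mutant and wild type. Its largest changes in roots were -0.75 ± 0.33 in nlp2-3 and -0.73 ± 0.34 in nlp7-1 (adjusted p = 0.213 and 0.21).

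Among 22 signalling partners of the family, such as the kinases that phosphorylate NLP7 and the nitrate sensor NPF6.3, calls in the roots of single mutants were mainly of lower genes. In roots 0 were called higher and 4 lower in nlp2-2, 1 and 4 in nlp2-3, 0 and 4 in nlp7-1, and 5 and 7 in the double mutant, with medians of -0.04, -0.03, -0.03 and -0.08. Of all genes, 3.2% were called higher and 3.91% lower in nlp2-2, 3.36% and 3.48% in nlp2-3, 4.5% and 3.45% in nlp7-1, and 12.9% and 12.2% in the double mutant. NPF6.3 fell in all 4, with log2 changes of -0.94, -0.92, -1.07 and -1.36 in the same order. Further down were AT3G25790 in nlp2-2 (-0.61 ± 0.12), the calcium sensor CBL9 in nlp2-3 (-0.50 ± 0.10) and the bZIP factor TGA1 in nlp7-1 (-0.52 ± 0.07) and the double mutant (-1.02 ± 0.07). The repressor gene HRS1 was higher in nlp2-3 (0.27 ± 0.08), and CBL1 (0.81 ± 0.18) and SPL9 (0.64 ± 0.22) were higher in the double mutant. In shoots, of 20 tested, 0 were higher and 1 lower in nlp2-2, 0 and 2 in nlp2-3, 1 and 3 in nlp7-1, and 1 and 7 in the double mutant, where 0.737% and 2.33%, 1.33% and 4.47%, 4.84% and 4.93%, and 15.5% and 15.6% of all genes were called higher and lower. In shoots TGA1 stood at -0.57 ± 0.11 in both NLP2 alleles, and the kinase gene CIPK23 at -0.25 ± 0.08 in nlp2-3, -0.26 ± 0.08 in nlp7-1 and -0.60 ± 0.08 in the double mutant. NPF6.3 was higher in nlp7-1 and double mutant shoots (0.47 ± 0.07 and 0.44 ± 0.07), and the phosphatase gene ABI2 lower (-0.44 ± 0.10 and -0.53 ± 0.10).

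The 24 nitrate response targets, genes that NLP proteins are known to turn on, were called lower more than higher in the roots of each mutant. These targets, like the partners, were chosen with earlier results of these data known, so their counts are a description and not a test. In nlp2-2 roots 13 were lower and 0 higher, in nlp2-3 roots 11 and 0, in nlp7-1 roots 18 and 1, and in double mutant roots 22 and 0, where 3.91%, 3.48%, 3.45% and 12.2% of all genes were called lower. Their medians were -0.39, -0.41, -0.61 and -1.04. NPF7.3, the xylem loader of nitrate, fell in nlp2-2 (-1.05 ± 0.09) and nlp2-3 roots (-1.08 ± 0.09), with the cytokinin synthesis gene IPT3 in nlp2-2 (-0.93 ± 0.11) and the transport partner NRT3.1 in nlp2-3 (-0.91 ± 0.14). In nlp7-1 roots the transcription factor gene NAC4 (-2.11 ± 0.17) and BT1 (-1.70 ± 0.14) fell most, and the 1 higher gene was the high-affinity nitrate carrier NRT2.2 (1.16 ± 0.34, adjusted p = 0.0487). In double mutant roots the nitrate reductase gene NIA1 (-2.58 ± 0.13) and BT1 (-2.17 ± 0.15) fell most.

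In shoots, of 22 targets tested, 7 were lower and 2 higher in nlp2-2, 6 and 2 in nlp2-3, 4 and 9 in nlp7-1, and 10 and 5 in the double mutant. Their medians were -0.24, -0.07, 0.25 and -0.26. Of all genes, 2.33% were called lower and 0.737% higher in nlp2-2 shoots, and 4.47% and 1.33% in nlp2-3 shoots. These shares were 4.93% and 4.84% in nlp7-1 shoots and 15.6% and 15.5% in double mutant shoots. Both NLP2 alleles had lower NRT3.1 (-1.25 ± 0.14 in nlp2-2 and -1.83 ± 0.14 in nlp2-3) and G6PD3 (-0.90 ± 0.14 and -0.62 ± 0.14), and higher CIPK3 (0.43 ± 0.07 and 0.32 ± 0.07) and NIA2 (0.31 ± 0.07 and 0.35 ± 0.07). In nlp7-1 shoots UPM1 (1.04 ± 0.17) and NPF7.3 (0.87 ± 0.13) were higher and IPT3 (-0.70 ± 0.14) and BT1 (-0.63 ± 0.11) lower. In double mutant shoots NRT2.1 (2.28 ± 0.59) and NPF7.3 (1.60 ± 0.13) were higher and IPT3 (-1.36 ± 0.15) and NIA1 (-1.32 ± 0.22) lower. Of the 8 leaf markers, 5 were called lower in double mutant shoots, against 15.6% of all genes, with a median of -0.18, and 0 in the shoots of the other mutants by edgeR. Their part in the shoot values was not tested.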

How the data were processed

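RNA of 36 libraries was counted per gene. Per the submitters' processing notes, HISAT2, HTSeq and the TAIR10 assembly were used, and versions, gene models and strand setting are not given in the sources used here. The authors deposited raw counts, as whole numbers, and FPKM, which follow from those counts, the library totals and 1 length per gene. The lengths equal neither the longest RefSeq transcript nor the exon union of any of the 9 members. Shorter transcripts were not compared. The members and all gene lists were chosen with earlier results of these data known.

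Genes were kept by filterByExpr at its minimum count of 10 and minimum total of 15; counts were then scaled with TMM and fitted with the robust quasi-likelihood test of edgeR 4.0.16 in R 4.3.3. The 18 libraries of a tissue were fitted together (12 residual degrees of freedom), and all 36 (24) for organ balance and tissue differences. The test was two-sided with BH adjustment over all genes: 20486 in roots, 19137 in shoots and 21554 in both. The SE is the log2 change over the square root of F. The model was checked on simulated counts. Alternatives were RLE size factors, DESeq2 1.42.0, no filter, a stricter filter, a replicate block, limma 3.58.1 on log2(FPKM + 1) and log2(FPKM + 0.1), only the groups compared, Col-0 in place of Col-4 and leaving out each library. The allele difference and the tissue difference of the double mutant over nlp2-3 were added after seeing the data. All 9 members are named in the comparisons. From the partner and target lists up to 2 called genes with the largest change in each direction are named per comparison, and the 2 genes most like NLP2, NLP4, NLP5 and NLP7. The library depth was 1.82e+07 to 3.17e+07 counts. NLP9 in roots rests on 0 to 19 counts a library.

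Same-numbered libraries deviated together, with every r over 0.1, in 3 of 36 group pairs, among them nlp2-2 with Col-4 roots (0.11, 0.15 and 0.18) and nlp2-3 with Col-0 roots (0.28, 0.38 and 0.23). This cut passes over weaker pairing, as in Col-4 with Col-0 shoots (0.09, 0.10 and 0.14, against a mean of -0.05 between other numbers). Over all pairs checked r ran from -0.11 to 0.38. The block changed no member's call for nlp2-2 over Col-4 roots or nlp2-3 over Col-0 roots. Between Col-4 and Col-0 shoots it added a call for NLP8 (edgeR, adjusted p = 0.00418). The replicates are biological per the labels, and p-values measure the spread between them. Protein sequences were not used here.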

Additional observations from a re-analysis of the deposited data

Results flagged for a closer look

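The effect of a mutation differed between shoots and roots for the following members, by the test of shoot effect minus root effect in the fit of all 36 libraries. All values are log2 differences ± SE from edgeR, called at a BH adjusted p under 0.05.

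For NLP2 the difference was 1.08 ± 0.14 in nlp2-2, where the remaining transcript was lower in roots, and -0.92 ± 0.14 in nlp2-3, where it was lower in shoots. It was -0.53 ± 0.13 in nlp7-1, -2.16 ± 0.14 in the double mutant over Col-0 and -1.24 ± 0.14 in the double mutant over nlp2-3.

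For NLP4 it was -0.39 ± 0.11 in nlp2-2, -0.53 ± 0.11 in nlp2-3, -0.57 ± 0.11 in nlp7-1, -0.88 ± 0.11 in the double mutant over Col-0 and -0.35 ± 0.11 in the double mutant over nlp2-3. The first was lost in 10 of 19 alternatives (adjusted p up to 0.169), and the last without nlp2-3 root replicate 1 or 2, double mutant root replicate 1 or double mutant shoot replicate 2 (up to 0.0946). For NLP5 it was -0.61 ± 0.12 in nlp2-3, -0.65 ± 0.12 in nlp7-1 and -0.95 ± 0.12 in the double mutant over Col-0.

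NLP3 differed by -1.18 ± 0.24 in nlp2-3 and -0.91 ± 0.23 in the double mutant over Col-0, NLP1 by -0.47 ± 0.14 in the double mutant over Col-0, and NLP7 by 0.53 ± 0.14 in the double mutant over nlp2-3. The NLP1 call was lost without double mutant shoot replicate 1 (adjusted p = 0.0568), and the NLP7 call without nlp2-3 root replicate 3 or double mutant shoot replicate 3 (up to 0.0592). NLP8 differed by -1.08 ± 0.15 in the double mutant over Col-0 and -0.89 ± 0.15 over nlp2-3. The value of NLP9, -4.36 ± 0.81 in the double mutant over Col-0, rests on 1 count in Col-0 roots and depends on how the fit treats such counts (limma on log2(FPKM + 1), adjusted p = 0.944).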

How the results depend on the processing

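Of 80 member differences called, 66 stayed called with their direction in every alternative. On log2(FPKM + 1) the shoot over root ratios of NLP2, NLP4 and NLP5 turned to -0.25, -0.41 and -0.22 in Col-0 and to -0.40, -0.52 and -0.52 in Col-4. On log2(FPKM + 0.1) they were -0.26, -0.43 and -0.25 in Col-0 and -0.43, -0.55 and -0.58 in Col-4, where the counts gave 0.32, 0.19 and 0.17. No change between mutant and wild type turned its direction. The order of members by level changed with the unit in 0 of 12 groups.

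The number of members called moved by over 1.5 times in 3 comparisons. For the tissue difference of nlp2-2 it was 1 in place of 2 without the filter and by limma on log2(FPKM + 0.1), and 1 to 2 when single libraries were left out. For the allele difference in roots DESeq2 called 1 in place of 0 (NLP2), and with a replicate block 2 in place of 1 were called between Col-4 and Col-0 shoots (NLP8, adjusted p = 0.00418). Smaller moves were 4 to 5 in place of 6 for double mutant over nlp2-3 roots, 4 to 6 in place of 4 over nlp7-1 roots, 2 in place of 3 for double mutant shoots, 3 to 6 in place of 4 for the tissue difference of the double mutant over nlp2-3, and 5 to 9 in place of 7 for Col-4 shoots over roots. The block changed 2 of 216 member calls in all.

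Counts of all genes called moved by over 1.5 times as follows. With only the groups compared, nlp2-3 roots gave 659 genes in place of 1401, double mutant over nlp2-3 roots 694 in place of 1326, and the allele difference in shoots 43 in place of 66. Col-0 in place of Col-4 gave 1360 in place of 586 in nlp2-2 shoots. The block gave 622 in place of 152 for Col-4 over Col-0 shoots, 1233 in place of 719 for the shoot interaction, 77 in place of 49 for the root interaction, 18 in place of 8 for Col-4 over Col-0 roots and 153 in place of 66 for the allele difference in shoots. DESeq2 gave 332, 149, 20 and 148 for Col-4 over Col-0 shoots, the root interaction, Col-4 over Col-0 roots and the allele difference in shoots, 24 in place of 13 for the allele difference in roots and 899 in place of 569 for the tissue difference of nlp2-2. Limma on log2(FPKM + 1) gave 1046 for the last and 42 for the allele difference in shoots. The stricter filter gave 5 for Col-4 over Col-0 roots and 8 for the allele difference in roots. Leaving out single libraries lowered nlp2-2 roots to 846 of 1458, nlp2-3 roots to 855 of 1401, nlp7-1 roots to 1010 of 1627, nlp2-2 shoots to 338 of 586, nlp7-1 shoots to 955 of 1870, double mutant over nlp2-3 roots to 870 of 1326, and double mutant over nlp7-1 to 824 of 1334 in roots and 921 of 1530 in shoots. It gave 50 to 205 for Col-4 over Col-0 shoots, 8 to 18 for Col-4 over Col-0 roots, 23 to 67 for the root interaction, 35 to 104 for the allele difference in shoots and 802 to 1731 in place of 1378 for the tissue difference of nlp7-1. The causes were not tested. For NLP9 in roots, counts were too few for the filtered fit.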
